A study of Homo sapiens with 38 samples.

Results

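The genes described here are 10 human loci around the transcription factor NF-kB, among them the kinase gene MAP3K8. Of these, 5 encode its subunits (NFKB1, NFKB2, REL, RELA and RELB) and 4 encode regulators of it (NFKBIA, NFKBIE, NFKBIZ and TNFAIP3). For each of the 10 genes, every listed region of GATA3, of BHLHE40 and of the histone mark H3K27ac in its window was taken. A region counted if it touched the RefSeq gene record or the 50 kb on either side. These windows held 55 of 29009 GATA3 regions, 65 of 26205 BHLHE40 regions and 159 of 113570 H3K27ac regions, and they belonged to 10 of 20033 protein-coding genes. MAP3K8 was chosen by the measured GATA3 signal, because the strongest GATA3 region of the genome lies in it, so its rank is a description and supports nothing further. That region had a signal value of 269, and the next regions in the list, just outside the choice, had 264 and 259.

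The regions came from chromatin immunoprecipitation and sequencing (ChIP-seq), in which DNA fixed to a protein is pulled down with an antibody and places rich in reads are listed. The cells were Jurkat, an established human T-cell acute lymphoblastic leukaemia (T-ALL) line, which is 1 line and no normal T cell. All groups used here carried the control lentivirus Ctrl_LV, and all were stimulated with PMA (50 ng/ml) and ionomycin (500 ng/ml), for a time that the characteristics give as 5 hours and the protocol as 2 hours. The series had 38 samples in 19 groups of 2; the values are from the GATA3, BHLHE40 and H3K27ac groups, and the other 16 groups were not analysed here. There is 1 list per group and no value per sample, so no spread between replicates and no p-value can be given, and since no unstimulated list was used here, nothing below measures a response to stimulation. Sequencing depth is unknown from the lists. H3K27ac regions lay at the gene start of 9 of 9 genes chosen for the T lineage (CD3E, CD3D, CD3G, CD28, CD2, LCK, ZAP70, RUNX3 and TAL1). They lay at that of 2 of 9 marker genes of other cells (CD79A and APOA1). Over the 15841 protein-coding genes with a listed start the share was 57.6%. CD3D and CD3G had the same highest value (3.92), so they may not be separate places. Genes without a listed start, such as CD3E, CD3G and APOA1, were counted at either end of the record.

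NF-kB proteins bind DNA as pairs of subunits, and in resting cells IkB inhibitors hold them in the cytoplasm. Signals from the T-cell receptor, which PMA and ionomycin mimic, lead to the destruction of the inhibitor, entry of the subunits into the nucleus and transcription of genes that include several of the inhibitors themselves. MAP3K8 (also called TPL2) is a kinase at the head of a kinase cascade and is held in complex with the NFKB1 product p105. GATA3 is a zinc-finger factor of T-cell development, BHLHE40 is a basic helix-loop-helix factor that binds E-box DNA, and H3K27ac marks active promoters and enhancers.

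The DNA just upstream of 5 of these genes is shown first, because it sets the factors' regions against the motifs present there. Each run is the 250 bases before the most upstream RefSeq start (GRCh38.p14), read 5′ to 3′ on the gene's strand, and capitals mark matches to the NF-kB consensus and to the E-box CACGTG. The positions are chr10:30433771-30434020 (plus strand) for MAP3K8, chr6:137867009-137867258 (plus) for TNFAIP3, chr14:35404750-35404999 (minus) for NFKBIA, chr3:101827740-101827989 (plus) for NFKBIZ and chr10:102393860-102394109 (plus) for NFKB2.
MAP3K8: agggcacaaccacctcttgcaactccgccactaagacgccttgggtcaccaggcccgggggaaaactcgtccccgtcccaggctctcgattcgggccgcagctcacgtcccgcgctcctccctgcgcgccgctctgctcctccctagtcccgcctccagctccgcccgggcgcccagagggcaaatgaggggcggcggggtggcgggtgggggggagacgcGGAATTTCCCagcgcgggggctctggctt
TNFAIP3: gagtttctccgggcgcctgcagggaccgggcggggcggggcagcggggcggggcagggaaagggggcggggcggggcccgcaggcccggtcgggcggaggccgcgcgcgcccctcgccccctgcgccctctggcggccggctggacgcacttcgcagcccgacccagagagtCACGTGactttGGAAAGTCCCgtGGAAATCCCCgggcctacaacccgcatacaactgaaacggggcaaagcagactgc
NFKBIA: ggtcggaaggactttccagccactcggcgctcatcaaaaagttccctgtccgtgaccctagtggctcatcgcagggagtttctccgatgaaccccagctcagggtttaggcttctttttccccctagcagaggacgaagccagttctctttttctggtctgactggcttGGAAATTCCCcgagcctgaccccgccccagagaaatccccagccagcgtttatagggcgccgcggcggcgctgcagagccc
NFKBIZ: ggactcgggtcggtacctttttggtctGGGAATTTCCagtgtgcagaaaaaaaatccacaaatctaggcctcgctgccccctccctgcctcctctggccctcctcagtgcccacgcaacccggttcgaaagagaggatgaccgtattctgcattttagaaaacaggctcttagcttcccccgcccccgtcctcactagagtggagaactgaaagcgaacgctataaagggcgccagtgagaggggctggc
NFKB2: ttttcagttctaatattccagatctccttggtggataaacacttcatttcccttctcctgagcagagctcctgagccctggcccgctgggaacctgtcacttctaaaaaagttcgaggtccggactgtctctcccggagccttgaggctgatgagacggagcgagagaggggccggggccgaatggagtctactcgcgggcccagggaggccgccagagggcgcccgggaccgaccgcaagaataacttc

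Of the 10 genes, 8 matched the RefSeq promoter table, and RELB and NFKBIE did not. The NF-kB consensus, a 10-base motif searched on both strands, was found in 6 of the 8 sequences: NFKB1, REL, NFKBIA, NFKBIZ, TNFAIP3 and MAP3K8. It was present in 10.9% of the 15841 promoters of protein-coding genes of the same length. TNFAIP3 held 2 separate matches, GGAAAGTCCC at 67 to 58 bases and GGAAATCCCC at 55 to 46 bases before the start, and MAP3K8 held GGAATTTCCC at 29 to 20 bases before its start. In REL the matches on the 2 strands overlapped, and together they formed the run GGGAAATTCCC. NFKB1 and NFKBIZ shared the same 10 bases, GGGAATTTCC, at 49 to 40 and at 223 to 214 bases before the start.

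No GATA site (AGATAA and its variant TGATAA, or AGATAG and its variant TGATAG, on either strand) was found in any of the 8 upstream sequences, against 17.8% of all promoters. The E-box CACGTG was found in 1 of 8, that of TNFAIP3 at 78 to 73 bases before the start, against 7.80% of all promoters, and any E-box CANNTG (a class that contains CACGTG) in 3 of 8 against 57.8%. The GC box GGGCGG occurred in 7 of 8 against 55.8%. The GATA3 regions covered all 250 bases in REL, NFKBIA and MAP3K8, 249 in NFKB2 and 160 in TNFAIP3, and none in NFKB1, RELA and NFKBIZ. BHLHE40 regions covered all 250 bases in 6 of the 8 genes and 199 in NFKB1, and none in NFKBIZ. These matches describe letters in the window only.

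Every member window held a region of each list, which is common: 76.1% of protein-coding genes had a GATA3 region in such a window, 80.0% a BHLHE40 region and 92.6% an H3K27ac region. All 10 windows also held a GATA3 region that overlapped a BHLHE40 region by at least 1 bp (60.5% of protein-coding genes), and all 10 held one that overlapped H3K27ac as well (55.2%). The genes differed more in how many regions they held. GATA3 regions numbered 16 at NFKB1, 13 at TNFAIP3, 8 at MAP3K8, 5 at REL, 3 at NFKBIZ and 2 at each of the other 5 genes. The median over all protein-coding genes was 2 regions, so 5 members lay above it and 5 at it.

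BHLHE40 regions were spread more evenly. NFKB1 had 13, REL 12, TNFAIP3 9, NFKB2 6, NFKBIA 3 and NFKBIZ 2, and RELA, RELB, NFKBIE and MAP3K8 had 5 each. The median over all protein-coding genes was again 2, so 9 members lay above it and NFKBIZ at it. H3K27ac regions ranged from 10 at RELA to 32 at NFKB1, and all 10 genes exceeded the median of 8. The members' windows had a median length of 122 kb, against 124 kb over all protein-coding genes, and NFKB1 had the longest window of the members at 216 kb. Per 100 kb of window, the members' median was 2.10 GATA3, 4.60 BHLHE40 and 11.8 H3K27ac regions, against 0.992, 1.62 and 5.90.

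**Figure D1:**
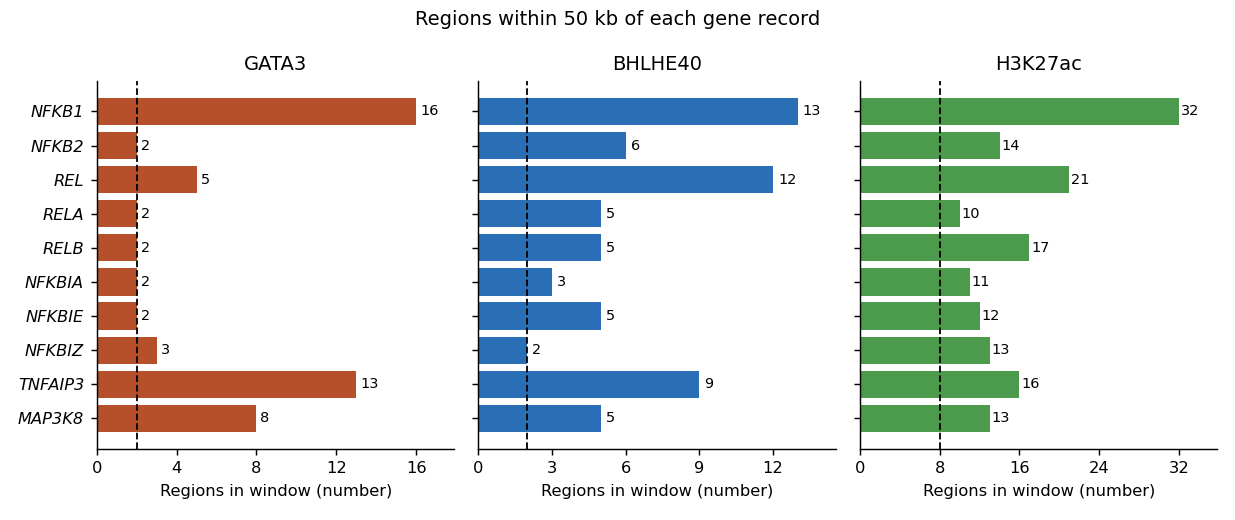
Bars give the number of GATA3, BHLHE40 and H3K27ac regions in the window of each gene (record and 50 kb on either side), and the dashed line is the median over 20033 protein-coding genes (2, 2 and 8). GATA3 regions concentrate at NFKB1, TNFAIP3 and MAP3K8, while BHLHE40 regions exceed the line at 9 of the 10 genes.

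The GATA3 regions were thus unevenly divided. NFKB1, TNFAIP3 and MAP3K8, singled out after their values were seen, held 37 of the 55 GATA3 regions (67.3%), 27 of the 65 BHLHE40 regions (41.5%) and 61 of the 159 H3K27ac regions (38.4%). The other 7 genes held 18 GATA3 regions and 38 BHLHE40 regions. The signal value, the authors' measure of enrichment of a region, ran from 5.59 to 269 over the 55 GATA3 regions with a median of 10.3, close to the median of 11.2 over the whole GATA3 list. For BHLHE40 it ran from 2.56 to 133 with a median of 9.76, against 9.35 over its list. Of the members' regions, 25 of 55 for GATA3 and 34 of 65 for BHLHE40 lay above the median of the list, and the high values belonged to a few places.

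**Figure D2:**
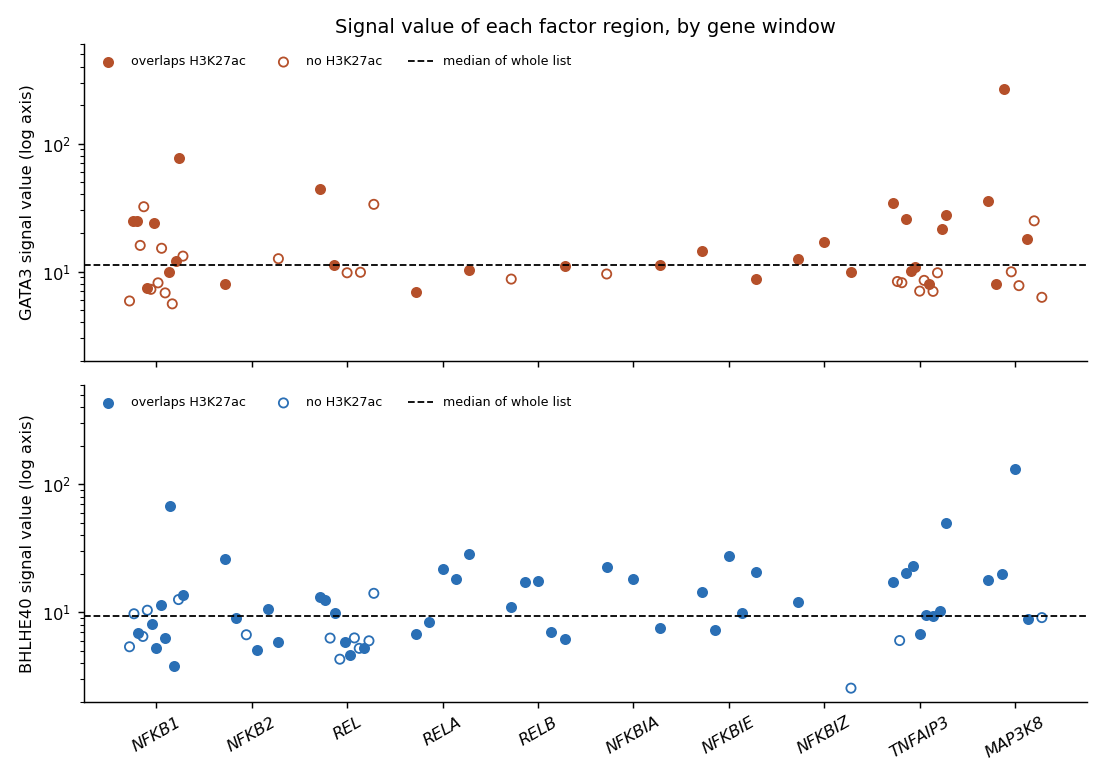
Each point is 1 region in the window of the gene below it, placed from lower to higher coordinates, with its signal value on a log axis for GATA3 (top) and BHLHE40 (bottom). Filled points overlap an H3K27ac region, and the dashed lines are the medians of the whole lists (11.2 and 9.35); MAP3K8 holds the highest point in both panels (269 and 133).

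Among the subunit genes, NFKB1 stood apart. NFKB1 encodes p105, which is processed to the DNA-binding subunit p50. Its record (chr4:102501359-102617302) contained the summits of 13 of its 16 GATA3 regions. The strongest factor regions were not at its start but close to the other end of the record: the GATA3 region chr4:102616346-102617227 had a signal value of 76.5 (rank 559 of 29009), with its summit 499 bp inside the downstream end. The BHLHE40 region there, chr4:102616457-102617241, had 67.7 (rank 153 of 26205), and the 2 summits lay 54 bp apart. The uncharacterised record LOC105377347 covers the same summits, so the region cannot be assigned to NFKB1 alone.

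The next GATA3 regions of NFKB1 had 32.1 at 32013 bp after the start, without H3K27ac, and 25.0 at 16312 bp before it, with H3K27ac, and both overlapped BHLHE40. At the start itself, BHLHE40 was listed (9.76, summit 30 bp upstream) and so was H3K27ac (6.84, summit 483 bp downstream, the highest of its 32 H3K27ac regions). A weaker H3K27ac region followed at 1251 bp (2.73). No GATA3 region reached within 1 kb of either listed start, and the nearest, with 24.9, had its summit 2566 bp after the upstream one. The second and the third BHLHE40 region in order of signal (13.7 and 12.6) lay beyond the record, 13572 and 10659 bp past its end.

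NFKB2, whose product p100 gives p52, showed the opposite arrangement for BHLHE40 only. Its strongest BHLHE40 region, chr10:102393672-102395802, lay on the start with 26.2 (rank 1802), and the strongest H3K27ac region, with 13.3 (rank 857 of 113570), had its summit 150 bp downstream. A second H3K27ac region at the start had 3.08. GATA3 was also listed there, with a low value of 8.04 (rank 21797), its summit 65 bp from that of BHLHE40. The other GATA3 region, with 12.6 and no BHLHE40 or H3K27ac, lay 1564 bp past the end of the record, in PSD. The next BHLHE40 regions had 10.6 near the start of CUEDC2 and 9.03 inside NFKB2.

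REL encodes c-Rel, a subunit with a transactivation domain that is prominent in lymphocytes. Its start carried all 3 marks: H3K27ac with 13.0 (rank 945) and 5.84, BHLHE40 with 12.4 and GATA3 with 11.3, the factor summits 400 bp apart. The strongest GATA3 regions were distant. One, with 44.4 (rank 1808), lay 40725 bp upstream at chr2:60840399-60841312, outside any gene record, together with BHLHE40 (13.2, summits 10 bp apart) and H3K27ac. The other, with 33.5, lay in PUS10 at 67610 bp downstream of the start, where BHLHE40 had 14.1, its highest value in the window, and no H3K27ac region was listed. Many of the 12 BHLHE40 regions were weak, and 8 of them had signal values of 6.32 or less.

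RELA and RELB, the genes of p65 and RelB, had high H3K27ac and 2 GATA3 regions each, the median over all protein-coding genes. At the RELA start, BHLHE40 (18.2) and H3K27ac (8.35 and 6.81) were listed and GATA3 was not. The highest H3K27ac region of the window, with 21.3 (rank 118), lay just beyond the other end of the gene at chr11:65652589-65653727, 790 bp outside the record, with BHLHE40 at 22.0 and GATA3 at 6.98. The strongest factor regions, BHLHE40 with 28.4 and GATA3 with 10.3, lay at the start of the acetyltransferase gene KAT5. The BHLHE40 region at the RELA start was the third in order.

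The strand and start of RELB were not taken from a table, so either end of its record counted as a start. At the lower end an H3K27ac region with 22.8 (rank 85, chr19:45001454-45001959) was the highest of all 159, beside a second one with 3.11. GATA3 was there with 11.0 and BHLHE40 with 17.4, summits 56 bp apart. BHLHE40 was as high inside the record at chr19:45016158-45017350 (17.7), without GATA3. At the higher end BHLHE40 (7.02) and H3K27ac (12.8) were listed, in CLASRP. The other GATA3 region of RELB, with 8.73, lay 49737 bp outside the record and only 84 bp inside the edge of the window. The third BHLHE40 region, with 11.0, lay at the start of CLPTM1.

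NFKBIA encodes IkB-alpha, the classical inhibitor that NF-kB itself induces. The gene is short (3237 bp) and was almost wholly covered: 1 BHLHE40 region of 5206 bp, chr14:35399109-35404314, had 22.6, and a second at the start had 18.2. GATA3 was listed at the start with 11.3 and a summit 25 bp from that of the second BHLHE40 region. H3K27ac was listed there in 3 regions with 10.1, 6.21 and 4.41. The remaining factor regions were weaker, with BHLHE40 at 7.50 (11599 bp upstream) and GATA3 at 9.57 (44972 bp past the record). BHLHE40 regions longer than 5000 bp were rare, at 95 of 26205, and 2 of them lay in these windows.

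The other long one lay beside NFKBIE, the gene of IkB-epsilon. It measured 12120 bp (chr6:44245849-44257968), had 27.4 and reached the starts of HSP90AB1 and SLC35B2, with GATA3 at 14.4 and its summit 103 bp away. It ended within 1 kb of the lower end of the NFKBIE record, where H3K27ac had 3.74. At the higher end BHLHE40 had 9.93 and H3K27ac 8.27, and GATA3 was not listed at either end. A further shared region 47887 bp away from the record had BHLHE40 at 20.7, GATA3 at 8.67 and the highest H3K27ac value of the window, 11.8. The third BHLHE40 region, with 14.5, lay at the start of SLC29A1.

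NFKBIZ, the gene of the nuclear protein IkB-zeta, which acts with p50 at selected promoters, was the member with least at its starts. No factor region came within 1 kb of either listed start. The sole H3K27ac region at a start, near the second one 21524 bp into the record, was weak, with 3.05 and a −log10 q of 2.02. The window's strongest regions in all 3 lists sat at the start of NXPE3: GATA3 with 17.1 and 12.6, BHLHE40 with 12.0 and 2.56, and H3K27ac with 8.28. Of these, the GATA3 region with 12.6 crossed the edge of the window, and its summit lay 50030 bp from the NFKBIZ record. The nearest factor region to the gene was a GATA3 region with 9.95 at 17312 bp upstream, also in NXPE3. The NF-kB consensus shown above in the NFKBIZ upstream sequence thus lies in DNA that no region of the 3 lists covers.

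TNFAIP3 encodes A20, a ubiquitin-editing enzyme that shuts NF-kB signalling down. Its 13 GATA3 regions gave 11.1 per 100 kb of window, the highest density of the members. The listed start lay 910 bp inside the record, and 2 GATA3 regions reached within 1 kb of it. One, with 10.9, lay across it (summit 23 bp downstream), and the other, with 10.1, ended before it (summit 903 bp upstream). Both overlapped a single BHLHE40 region (signal value 23.0) with its summit 3 bp from the start, and H3K27ac was listed with 6.02 and 3.73. That BHLHE40 region and the GATA3 region with 10.9 both cover the CACGTG and both NF-kB matches of the upstream sequence above.

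The strongest GATA3 regions of TNFAIP3 flanked the gene. They had 34.5 at 43027 bp upstream (chr6:137823581-137824884, in the long non-coding gene WAKMAR2), 27.7 at 60758 bp downstream (chr6:137927409-137928626, outside any record) and 25.8 at 10523 bp upstream (also in WAKMAR2). Each overlapped BHLHE40 and H3K27ac, with summits of the factors 1, 4 and 9 bp apart. BHLHE40 was highest at the downstream one, with 50.0 (rank 368), and had 20.4 at the nearer and 17.3 at the farther upstream one. H3K27ac was also highest at the downstream one, at 7.03, above its value at the start. The 5 GATA3 regions that BHLHE40 did not share were weak, with 9.78 the highest value.

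MAP3K8 carried its GATA3 maximum inside the gene. The region chr10:30436667-30437846 ranked 1 of 29009 by signal value and also by −log10 q (4990), with its summit 3146 bp after the most upstream start. BHLHE40 at chr10:30436732-30437919 had 133 (rank 14 of 26205), the summits 17 bp apart. H3K27ac over the same place had only 6.16 (rank 8800), which was still the highest of its 13 H3K27ac regions. The gene records do not separate exons from introns, so the place within the gene is given by distance alone.

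All 5 BHLHE40 regions of MAP3K8 overlapped GATA3, with summits 5 to 44 bp apart. A GATA3 region with 35.9 lay 15111 bp upstream, with BHLHE40 at 17.8, and one with 24.9 lay 70446 bp downstream, with BHLHE40 at 9.11. At the start GATA3 was low (8.04) and BHLHE40 higher (20.1), summits 9 bp apart, and H3K27ac had 3.68 and 2.54. The 3 GATA3 regions without BHLHE40 had 9.95, 7.76 and 6.29, and all lay more than 30 kb past the record.

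**Figure D3:**
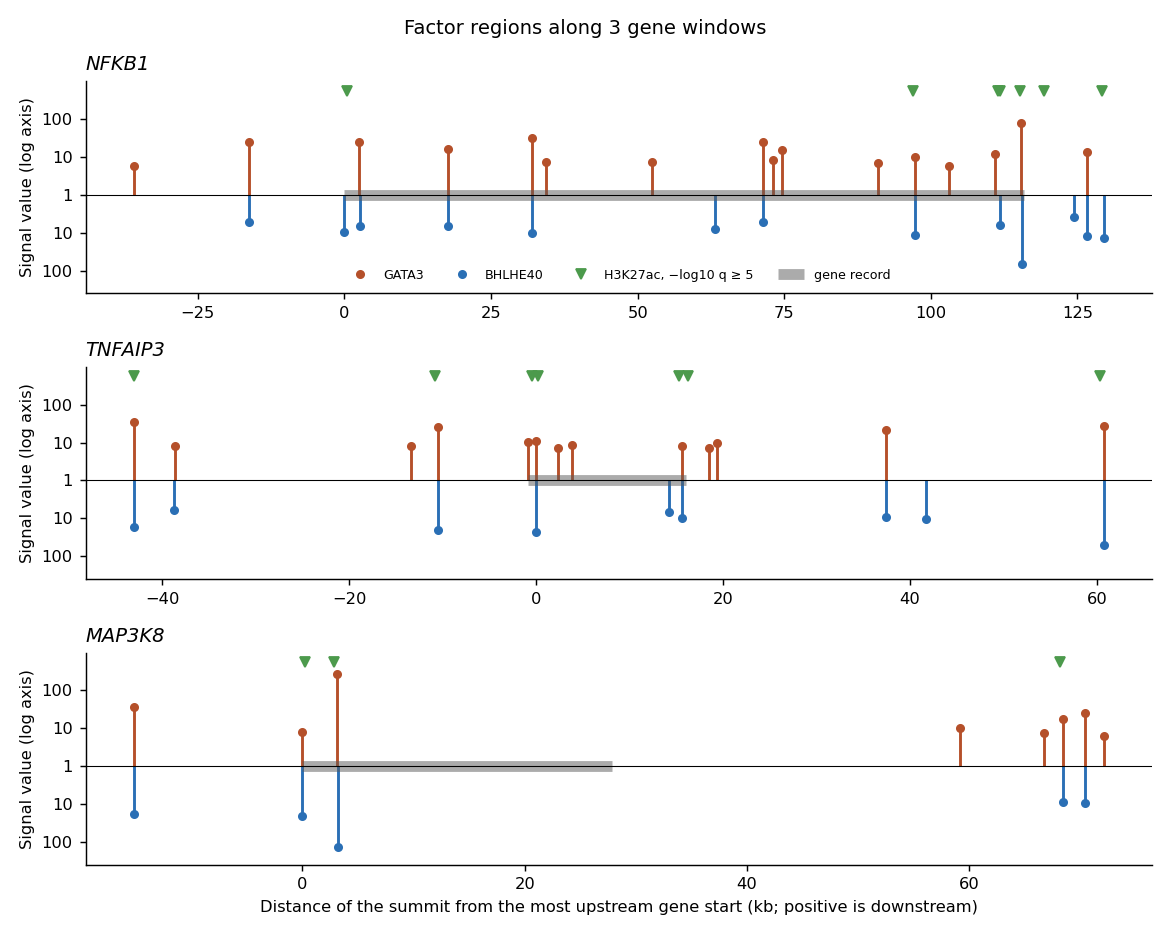
Stems mark GATA3 (up) and BHLHE40 (down) regions by the distance of their summit from the most upstream start, with the signal value on a log axis, the gene record as a grey bar and triangles for H3K27ac regions with −log10 q of at least 5. The highest stems stand near the downstream end of NFKB1 (76.5 and 67.7), on both sides of TNFAIP3 and 3146 bp into MAP3K8 (269 and 133).

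At the gene starts, counting a region that reached within 1 kb of a listed start, GATA3 was listed at 5 of the 8 genes with a start in the table (23.7% of the 15841 protein-coding genes with one). BHLHE40 was listed at 7 of 8 (49.6%) and H3K27ac at 8 of 8 (57.6%). With RELB and NFKBIE included, either record end counting as a start, the planned counts were 6, 9 and 10 of the 10 members. The H3K27ac counts include NFKBIZ through the weak region near its second start only. Within 500 bp of a start, or with a −log10 q of at least 5, H3K27ac was listed at 9 of the 10 members. All 3 together were at NFKB2, REL, NFKBIA, TNFAIP3 and MAP3K8, 5 of 8 against 21.9%. No test was made of these counts, since the genes were proposed with earlier results of these data known. A region among the top 1% of its list by signal value was present at 1 of 10 windows for GATA3 (MAP3K8, by the choice of that gene; 2.22% of protein-coding genes) and at 2 of 10 for BHLHE40 (MAP3K8 and NFKB1; 2.20%).

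Of the 55 GATA3 regions, 34 overlapped BHLHE40, or 61.8% with a 95% Wilson interval of 48.6 to 73.5, against 48.7% in the whole list. The share overlapping H3K27ac was 54.5% (41.5 to 67.0) against 49.1%. Of the 65 BHLHE40 regions, 50.8% (38.9 to 62.5) overlapped GATA3 against 53.0%, and 76.9% (65.4 to 85.5) overlapped H3K27ac against 76.4%. The whole-list share lay inside the interval in all 4, for GATA3 regions on BHLHE40 close to its lower bound. The intervals cover counting error only and treat neighbouring regions as separate.

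Shared GATA3 regions were the stronger ones. Their median signal value was 15.2 (6.98 to 269), against 8.18 (5.59 to 15.2) for the 21 unshared, and the same order held in the whole list (13.9 and 10.1). For BHLHE40 the medians were 13.2 shared and 7.13 unshared, and 11.4 and 7.96 in the list. The 18 GATA3 regions with neither BHLHE40 nor H3K27ac lay in 7 of the windows and had a median of 8.17, with a highest value of 15.2. In the 34 shared regions the nearest summits of the factors lay a median of 25 bp apart (1 to 939), against 35 bp in the list, and within 50 bp in 61.8% against 61.5%.

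The balance of the factors differed by place. The 8 genes with a listed start had 6 shared pairs at a start of their own. In all 6 the BHLHE40 region stood at a higher percentile of its list than the GATA3 region did of its own. The medians were 89.4 for BHLHE40 and 45.0 for GATA3. GATA3 signal values there ran from 8.04 to 11.3 and those of BHLHE40 from 12.4 to 26.2. Of the 25 pairs elsewhere, BHLHE40 was the higher in 9, and the medians were 63.4 for BHLHE40 and 82.6 for GATA3. Over the whole lists BHLHE40 was the higher in 77.3% of pairs at any protein-coding start and in 43.6% of pairs elsewhere. The members were split by their own starts only, so their pairs elsewhere include those at the starts of KAT5 and NXPE3. The members followed the order of the lists, on a split that was not the same. TNFAIP3 gave 2 of the 6 pairs from 1 BHLHE40 region, so these are not 6 separate places. Likewise, REL gave 2 of the 25 pairs elsewhere from 1 BHLHE40 region. The NFKBIZ GATA3 region with 17.1 overlapped BHLHE40 regions with 12.0 and 2.56. It was paired with the latter, whose summit was the nearer, at 8 bp.

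**Figure D4:**
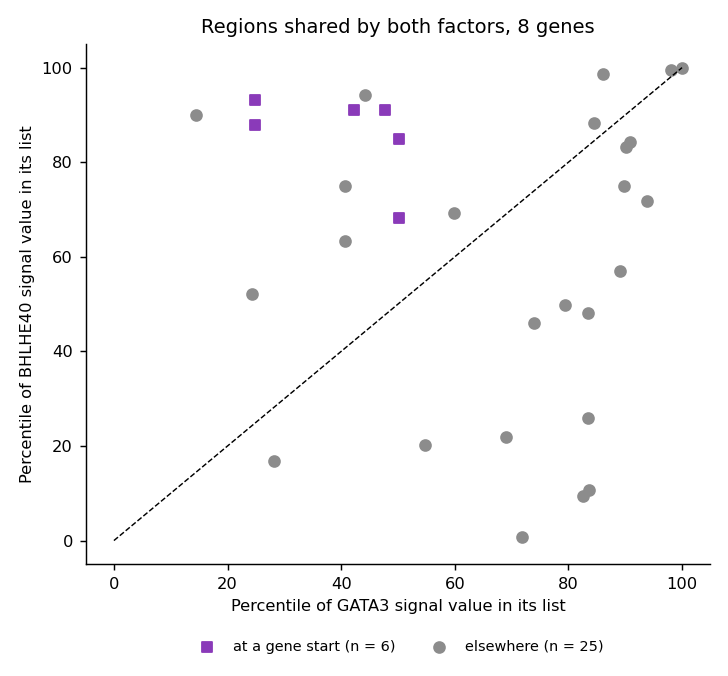
Each point is 1 GATA3 region that overlaps a BHLHE40 region at the 8 genes with a listed start, with the percentile of its GATA3 signal value on the x axis, that of the BHLHE40 signal value on the y axis and the line of equal percentiles dashed. The 6 pairs at a start of the gene itself lie above the line, and 16 of the 25 pairs elsewhere lie on or below it.

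H3K27ac set the genes in another order than the factors. The highest H3K27ac value in the window stood at the 98.7th percentile of protein-coding genes for RELB, 98.1 for RELA, 87.5 for NFKB2 and 86.5 for REL. It stood at 44.0 for TNFAIP3, 42.4 for NFKB1 and 36.9 for MAP3K8. By the highest GATA3 value the order was MAP3K8, NFKB1 (96.0), REL (88.0) and TNFAIP3 (82.4), with RELA last at 40.3. MAP3K8, NFKB1 and TNFAIP3 had the 3 highest BHLHE40 maxima and also the 3 lowest H3K27ac maxima among the members. Only REL stood above the 80th percentile for both GATA3 and H3K27ac. These orders rest on the single highest region of each window and do not mean that H3K27ac was sparse there. By the number of H3K27ac regions, NFKB1 stood at the 98.5th percentile, TNFAIP3 at 84.5 and MAP3K8 at 73.9. No replicate value exists to say which neighbours in these orders differ.

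**Figure D5:**
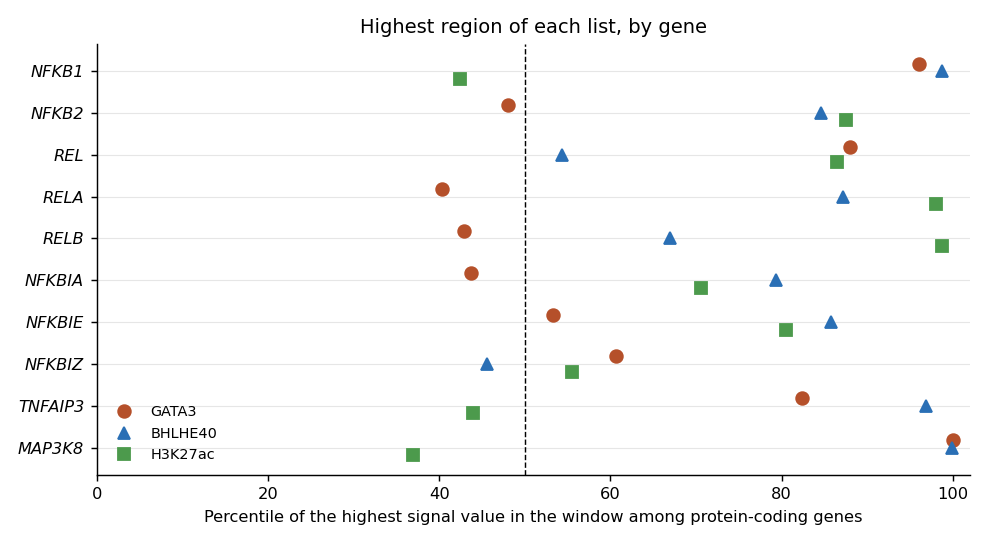
Symbols give, for each gene, the percentile among protein-coding genes of the highest signal value in its window for GATA3 (circles), BHLHE40 (triangles) and H3K27ac (squares), with the middle of the scale dashed. NFKB1, TNFAIP3 and MAP3K8 have factor symbols above 82 and H3K27ac symbols below 45, and RELA and RELB show GATA3 below 43 and H3K27ac above 98.

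Of the 159 H3K27ac regions, 33 (20.8%) overlapped both factors, 38 (23.9%) BHLHE40 only, 3 (1.89%) GATA3 only and 85 (53.5%) neither. The shares in the whole list were 11.8%, 11.1%, 3.50% and 73.6%. Most of the 85 were weak: their median signal value was 3.05, and a −log10 q of 5 or more was reached by 8 of them, against 25 of the 33 regions with both factors, whose median was 4.72.

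The wider pathway was read from a list of 58 other genes. GATA3 regions lay in the windows of 52 of them (76.1% of all protein-coding genes), BHLHE40 in 57 (80.0%) and H3K27ac in all 58 (92.6%), and 42 held a region shared by both factors (60.5%). Among the 51 with a listed start, GATA3 was at the start in 14 (23.7% of all protein-coding genes with a start), BHLHE40 in 40 (49.6%) and H3K27ac in 45 (57.6%), so the GATA3 count was near the background. The median counts were 3 GATA3 and 5 BHLHE40 regions, against 2 and 2 over all protein-coding genes. By role, the IKK and other NF-kB kinases had a median of 2 GATA3 regions, the T-cell receptor adaptors 4, the ubiquitin-editing genes and brakes 3, the other IkB proteins 2, the genes around MAP3K8 3 and the textbook NF-kB targets 7. Some of these windows overlap. TNF, LTA and LTB are neighbours with 10 GATA3 regions each and the same strongest one. BIRC2 and BIRC3, both adaptors, have 10 and 11 and again the same strongest one. CCL3 and CCL4, both targets, hold no GATA3 region and share their only BHLHE40 region. The adaptor and target medians thus count some loci more than once.

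Top 1% GATA3 regions lay in 5 of the 58 windows (2.22% of all protein-coding genes). The highest was that of IER3, an early-response target, with 166 (rank 36), followed by IL2, the T-cell growth factor, with 141 (rank 74). TRAF6, a ubiquitin ligase of the pathway, had 131, TAB2, an adaptor of the kinase TAK1, had 113, and NFKBIB, the gene of IkB-beta, had 96.6. The IL2, IER3, TRAF6 and NFKBIB summits lay outside those records, and the TAB2 summit inside. BHLHE40 regions of the top 1% were also in 5 of the 58 windows (2.20% of all protein-coding genes), those of IL2 (85.3), IER3 (72.3), NFKBIB (65.2), BCL3 (61.4), which encodes a nuclear IkB protein, and CHUK (58.8), the gene of IKK-alpha. IER3, IL2 and NFKBIB were thus in both groups, and in each of these 3 the strongest GATA3 region overlapped BHLHE40. The BHLHE40 summits of IL2, IER3, NFKBIB and CHUK lay outside those records, and only that of BCL3 inside. 

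The genes whose 3 percentiles were nearest to those of MAP3K8, over the 3 lists, were FLI1 (distance 0.607 percentile points), MTCL3 (1.46) and FSD1L (1.47). Their highest GATA3 values were 153, 129 and 124, their highest BHLHE40 values 125, 66.3 and 73.6, and their highest H3K27ac values 6.23, 6.17 and 6.26. MAP3K8 held 8 GATA3 regions, against 24 at FLI1, 3 at MTCL3 and 2 at FSD1L. The likeness is one of 3 values per gene and of nothing else.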

How the data were processed

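ChIP-seq regions were taken from 3 deposited narrowPeak lists, each 1 list for 2 samples. The authors' factor lists carry an IDR threshold of 0.05 in their names while that of H3K27ac is called pooled. Per the submitters' processing notes, the build is hg38 and bcl2fastq 2.20 and MACS2 were used; aligner, filters and use of input are not given in the sources used here. An IDR threshold keeps regions that repeat between samples, whereas a pooled list keeps many weak ones. The deposited score, signal value and −log10 q-value describe each region within its list, and what the signal value is relative to is not stated.

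Regions, 1-based, were assigned to RefSeq gene records (GRCh38.p14) with 50 kb on either side. Overlap meant at least 1 bp. A start is any of those in the RefSeq promoter table, distances use the most upstream one, and for RELB and NFKBIE either record end counted. The tools were pandas 2.3.3, numpy 2.4.6, matplotlib 3.10.9 and scipy 1.17.1 under Python 3.11.15, and functions were tested on simulated data. Depth is unknown. Wilson intervals cover counting error only.

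Members, the pathway list and the rules were chosen with earlier results of these data known. Per member, the 3 strongest regions of each factor list, the highest H3K27ac region and all at the start were described, with pathway genes holding a top 1% factor region and the 3 genes nearest to MAP3K8. Alternatives were other windows (10 and 100 kb), overlap rules, start distances (500 bp and 2 kb), a score of at least 830 and a −log10 q of at least 5.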

Additional observations from a re-analysis of the deposited data

How the results depend on the processing

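The 10 counts and shares were recomputed under 50 alternatives, 47 planned and 3 added after the data were seen (the start counts without RELB and NFKBIE), and 42 stayed within 1.5 times the count or within the interval of the share. Windows of 10 kb held 31 GATA3, 37 BHLHE40 and 81 H3K27ac regions, and windows of 100 kb held 257 H3K27ac regions. A −log10 q of at least 5 left 60 of the 159 H3K27ac regions and lowered the share of BHLHE40 regions on H3K27ac to 56.9%. With the summit of the factor region required inside the H3K27ac region, that share was 58.5%, and the share of GATA3 regions on H3K27ac was 36.4%; both settings allow fewer overlaps by construction. Without MAP3K8 the share of GATA3 regions on BHLHE40 was 61.7%. No paired analysis was possible because the lists give no values for single samples, and for the same reason leaving out a replicate was not run. Depth is unknown, so a factor not listed at a start is not shown to be absent there.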
